A study of Mus musculus with 4 samples.

Results

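Accessible chromatin was measured by ATAC-seq in hippocampal neurospheres of newborn C57BL/6 mice, and the 500 widest promoter regions of protein-coding genes were examined. ATAC-seq uses the transposase Tn5 to cut and tag DNA where it is not covered by nucleosomes, so that a count of tags in a region reports how open it was. The 2 Fgf13cko libraries came from hGFAPCre+, Fgf13 flox/y mice and the 2 Control libraries from hGFAPCre+, Fgf13+/y littermates, so the Cre driver, active in radial glia and their progeny, was present in both groups. Neurospheres are floating clusters of neural progenitors, and all were grown for 7 days with FGF-2 and EGF. Cells of 1 mouse were spread over 2 wells, and the labels do not name separate mice for the libraries of a group, and the spread behind each p-value may therefore be technical. Fgf13, on the X chromosome, encodes a member of the FGF family that is not secreted and that binds sodium channels and microtubules.

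The regions were chosen by width. Of 29121 merged regions deposited by the authors, 10930 lay on chromosomes 1 to 19 or X with their centre within 1000 bases of the start site of a protein-coding gene, and the 500 widest of these were taken. Each merged region is the union of overlapping peaks from the 4 libraries, and each of its edges is the edge of a peak, so the same libraries set the width. Width and peak coverage are therefore described with no test. The 500 regions were 1987 to 3723 bases wide with a median of 2231 bases, against a median of 981 bases in the other 10430 promoter regions. Only 19 were wider than 3000 bases. Just inside the limit were the regions of Hira (1992 bases), Cdk14 (1991 bases), Sfxn3 (1990 bases), Atoh1 (1989 bases) and Pcsk2 (1987 bases). Just outside it were those of Aff1 (1987 bases, tied with Pcsk2, with the tie broken by chromosome order), Slc43a2 (1986 bases), Gja1 (1984 bases), Pawr (1984 bases) and App (1983 bases).

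At most active mammalian promoters a short stretch around the start site is free of nucleosomes. Many such promoters lie in CpG islands, stretches rich in the CG dinucleotide that are usually unmethylated. In other cell types, unusually broad domains of active promoter marks have been linked to genes of cell identity. An open region can extend into the first intron, where further regulatory elements often lie.

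The promoter windows of 7 of the 500 regions illustrate how far their CG content varied. Each window runs from 250 bases before to 50 bases after the start site, in RefSeq on GRCm38.p6, is printed 5′ to 3′ on the strand of the gene, and has every CG dinucleotide in capitals. The first set belongs to the 4 widest regions: Brd2 (chr17:34121698-34121997, minus strand, 14 CG), Erf (chr7:25250709-25251008, minus strand, 32 CG), Hivep2 (chr10:13966129-13966428, plus strand, 35 CG) and Cpt1a (chr19:3323051-3323350, plus strand, 22 CG).
Brd2: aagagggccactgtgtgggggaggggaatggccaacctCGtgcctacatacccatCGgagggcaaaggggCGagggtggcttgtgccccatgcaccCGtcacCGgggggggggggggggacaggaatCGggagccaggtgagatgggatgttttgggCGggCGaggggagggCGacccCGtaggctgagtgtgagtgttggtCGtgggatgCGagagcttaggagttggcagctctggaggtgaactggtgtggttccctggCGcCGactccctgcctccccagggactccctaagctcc
Erf: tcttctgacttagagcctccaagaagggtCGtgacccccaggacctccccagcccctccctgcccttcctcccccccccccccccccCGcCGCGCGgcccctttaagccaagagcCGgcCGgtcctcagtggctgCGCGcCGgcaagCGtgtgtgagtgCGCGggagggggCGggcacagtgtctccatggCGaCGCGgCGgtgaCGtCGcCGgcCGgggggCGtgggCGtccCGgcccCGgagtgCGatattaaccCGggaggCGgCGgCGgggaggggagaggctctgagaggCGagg
Hivep2: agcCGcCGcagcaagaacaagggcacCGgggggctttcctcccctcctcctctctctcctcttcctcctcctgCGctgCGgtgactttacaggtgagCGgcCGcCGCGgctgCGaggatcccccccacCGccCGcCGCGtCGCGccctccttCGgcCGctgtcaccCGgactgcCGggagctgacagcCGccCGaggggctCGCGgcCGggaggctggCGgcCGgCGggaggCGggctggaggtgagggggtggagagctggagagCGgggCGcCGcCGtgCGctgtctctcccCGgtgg
Cpt1a: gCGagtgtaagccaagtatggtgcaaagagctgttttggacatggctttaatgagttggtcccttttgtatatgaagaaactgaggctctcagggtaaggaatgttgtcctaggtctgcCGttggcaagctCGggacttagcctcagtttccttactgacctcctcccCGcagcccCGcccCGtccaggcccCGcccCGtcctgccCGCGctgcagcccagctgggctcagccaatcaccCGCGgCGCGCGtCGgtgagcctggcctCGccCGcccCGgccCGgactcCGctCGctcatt
The second set belongs to regions that passed the test described further on: Alyref2 (chr1:171503228-171503527, plus strand, 14 CG) and Msx3 (chr7:140049039-140049338, minus strand, 22 CG), which rose in Fgf13cko, and Ndrg2 (chr14:51913955-51914254, minus strand, 11 CG), which fell.
Alyref2: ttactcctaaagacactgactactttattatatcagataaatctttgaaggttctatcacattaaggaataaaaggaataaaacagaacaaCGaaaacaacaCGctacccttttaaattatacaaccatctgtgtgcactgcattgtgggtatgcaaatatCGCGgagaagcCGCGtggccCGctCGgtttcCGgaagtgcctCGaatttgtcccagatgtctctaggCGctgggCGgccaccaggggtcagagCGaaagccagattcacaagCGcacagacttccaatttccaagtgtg
Msx3: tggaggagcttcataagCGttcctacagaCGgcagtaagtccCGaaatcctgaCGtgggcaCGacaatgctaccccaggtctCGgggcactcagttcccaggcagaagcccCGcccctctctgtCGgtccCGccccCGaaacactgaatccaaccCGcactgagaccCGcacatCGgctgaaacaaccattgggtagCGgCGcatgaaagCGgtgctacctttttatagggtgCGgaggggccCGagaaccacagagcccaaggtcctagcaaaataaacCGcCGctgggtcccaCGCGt
Ndrg2: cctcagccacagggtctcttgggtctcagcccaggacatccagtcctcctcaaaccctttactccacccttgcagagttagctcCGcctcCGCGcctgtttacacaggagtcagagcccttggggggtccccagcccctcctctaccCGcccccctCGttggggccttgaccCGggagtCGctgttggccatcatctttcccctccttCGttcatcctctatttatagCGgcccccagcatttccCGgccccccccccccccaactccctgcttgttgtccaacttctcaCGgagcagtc
The median over 32851 RefSeq windows, not limited to protein-coding genes or to open regions, was 7 CG, so all 7 printed windows lay above it. Ndrg2 held the fewest CG of the 7, with 58.6% of the RefSeq windows holding fewer. Hivep2 held the most, with 93.0% holding fewer. A window at the start site of the named gene lay inside the region for 366 of the 500 (73.2%), which was too few for a comparison of base composition or motifs over the whole set, so none is given.

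The 500 regions belonged to 498 genes. Bcl11a, a zinc finger factor of cortical and hippocampal neurons, and Oxr1, an oxidation resistance gene, held 2 regions each. The widest was that of Brd2, a reader of acetylated histones (chr17:34119104-34122826, 3723 bases). It was followed by Erf, a repressor regulated by MAP kinase signalling (3647 bases), Hivep2, a large zinc finger factor (3635 bases), and Cpt1a, which controls the entry of fatty acids into mitochondria (3520 bases). Next came Gpc4, a cell surface heparan sulfate proteoglycan (3409 bases), Adgrl3, an adhesion receptor of synapses (3395 bases), Mdga1, a membrane protein that binds neuroligins (3292 bases), and Cux1, a homeobox factor of upper-layer neurons (3255 bases). Gramd1a, a sterol transporter (3254 bases), and Mpp2, a synaptic scaffold (3204 bases), completed the 10 widest.

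These regions reached further into the gene than away from it. The median region covered 1436 bases downstream and 857 bases upstream of the start site, against 526.5 and 421.5 bases in the other promoter regions. The centre lay downstream of the start site in 344 of 500 (68.8%), against 63.1% of the others. In the authors' annotation the centre was intronic in 34.6%, against 15.8% of the others, and classed as promoter or start site in 42.8%, against 63.1%. The wide regions also belonged to longer genes. The median gene length was 69.3 kb (n = 499), against 27.0 kb for the other promoter regions (n = 10418), and 40.3% of the genes were at least 100 kb long, against 16.4%. A further 29 regions at least as wide had a start site inside but their centre beyond 1000 bases, and were not counted.

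Gene lists for neural, signalling and general cell functions differed in how many of their promoter regions were among the 500. Of all 10930 promoter regions, 4.57% were, and 96 of the 500 regions belonged to at least 1 of 27 lists. The axon guidance and cell adhesion list had the highest share among lists with at least 8 regions, with 13 of 38 (34.2%), including the semaphorin receptor Nrp1, the Slit receptor Robo2, the ephrin receptors Ephb2, Epha4 and Epha5, and Cdh4, a cadherin. Proneural and neurogenic factors had 6 of 22 (27.3%), including Neurog2, Eomes, Sox11 and both regions of Bcl11a. FGF and MAPK feedback genes had 8 of 30 (26.7%): Fgf10, a secreted ligand, Fgf12, Fgf13 and Fgf14, the homologous factors inside the cell, Dusp4, Dusp6 and Spred2, inhibitors of MAP kinase signalling, and Etv1, an ETS factor downstream of it. Sodium channels and their partners had 5 of 20 (25%), including the same 3 homologous factors and Ank3, the ankyrin of the axon initial segment.

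The other lists had lower shares. Microtubule genes and kinesins had 7 of 35 (20.0%), including the tubulins Tubb2a and Tubb2b. Neural stem cell and radial glia genes had 4 of 23 (17.4%), namely Id4, Sox9, Gli3 and Pax6. The BMP and TGF-beta pathway had 5 of 31 (16.1%) and the Wnt pathway 4 of 25 (16%), among them its receptors Fzd5 and Fzd8. The Notch pathway had 1 of 20 (5%), the Notch regulator Numbl, which was close to the share of all promoter regions. Synaptic and neuronal genes had 5 of 32 (15.6%), including the neurotrophin Bdnf and its receptor Ntrk2. RNA processing had 5 of 35 (14.3%), patterning and homeobox factors 3 of 23 (13.0%), cell cycle and replication 5 of 39 (12.8%) and immediate early and stress genes 4 of 34 (11.8%). Of glial lists, the oligodendrocyte lineage had 1 of 8 (Olig1) and astrocyte genes 1 of 15 (Sox9). Chromatin regulators had 6 of 55 (10.9%), histone genes 4 of 43 (9.30%) and Zfp zinc finger genes 9 of 328 (2.74%). None of the 70 promoter regions of ribosomal protein genes and none of the 68 of respiratory chain genes was among the 500, and their median widths were 901.5 and 884.5 bases. Housekeeping genes had 3 of 15 (20.0%), which were Actb, Gapdh and Ubb. The lists were drawn up with earlier results of these data known, and list sizes are small, so the shares are descriptions. Wide regions belonged to longer genes, and the part of gene length in these shares was not tested.

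**Figure D1:**
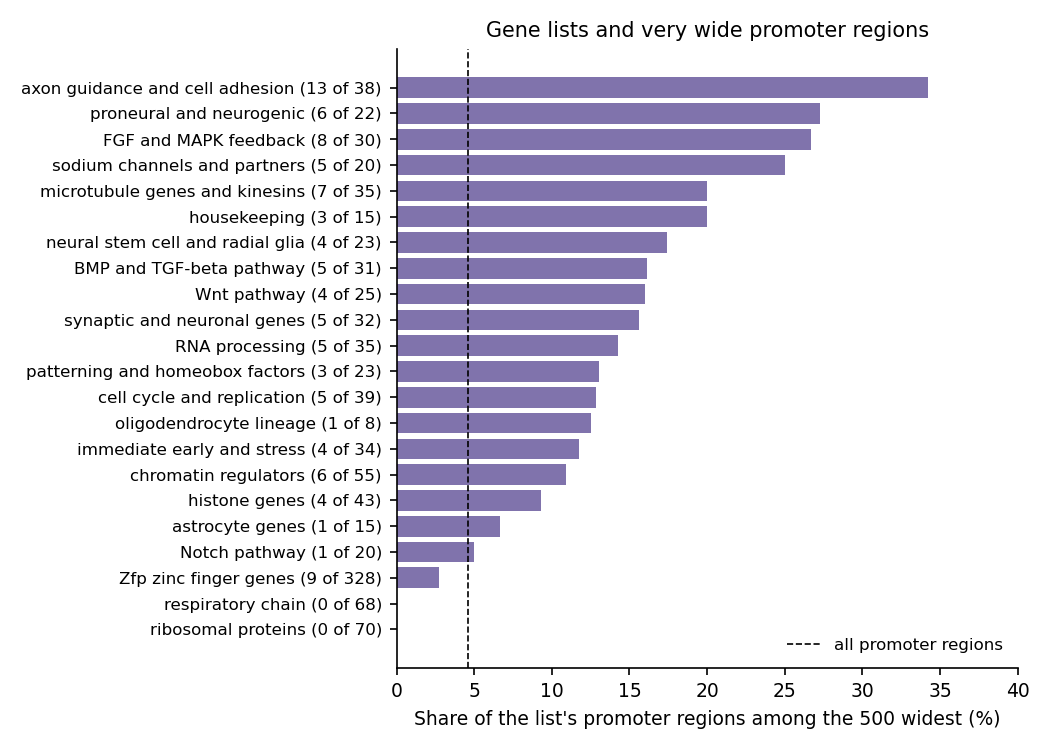
Bars give, for each gene list with at least 8 promoter regions, the share in percent of its regions that were among the 500 widest, with the numbers in brackets and the dashed line at the 4.57% of all promoter regions. Axon guidance, proneural and FGF lists stand at the top with 34.2%, 27.3% and 26.7%, and the ribosomal protein and respiratory chain lists at 0.

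Markers of neural progenitors were open in all libraries. All 8 markers, among them Sox2, Nes, Vim and Hes5, had a promoter region, and their summed normalised counts were 2369 and 1862 in Fgf13cko and 1880 and 2242 in Control. Pax6 and Sox9, which are also such markers, were among the 500. Of other cell types, 1 of 5 microglial, 1 of 4 endothelial, 1 of 5 meningeal, 2 of 4 ependymal, 2 of 4 neuronal and 2 of 4 oligodendrocyte lineage markers had a promoter region. Microglial Aif1, Cx3cr1, Csf1r and Tmem119 had none, and the sum for the remaining microglial marker was 11.4 and 20.97 in Fgf13cko, against 39.5 and 27.7 in Control. The other summed levels are those of few regions: endothelial 70.7 and 62.9 in Fgf13cko, against 75.02 and 64.0 in Control, meningeal 144 and 95.4, against 119 and 102, ependymal 133 and 151, against 147 and 138, and neuronal 108 and 87.0, against 96.7 and 82.2. The oligodendrocyte lineage sum was 422 and 321 in Fgf13cko and 280 and 301 in Control. The part of other cell types in the results below was not tested.

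The libraries differed in ways that bear on every width and count. Total tags were 16.8 M and 13.1 M in Fgf13cko libraries 1 and 2, against 24.9 M and 26.0 M in Control libraries 1 and 2. Mitochondrial regions took 9.54% and 9.19% of all tags in Fgf13cko, against 23.4% and 27.0% in Control. Nuclear regions held 2.55 M and 2.63 M tags in Fgf13cko and 2.78 M and 3.25 M in Control. Peaks numbered 64954 and 54373 in Fgf13cko and 38006 and 47148 in Control. The Fgf13cko libraries were further apart from each other than the Control libraries, with r = 0.880 between log2 counts of the Fgf13cko libraries over all regions and 0.960 between those of the Control libraries. Their part in the differences of coverage and counts was not tested.

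Fgf13cko peaks covered a larger share of the median wide region than Control peaks did. The median covered length was 1958 and 1894 bases in Fgf13cko, against 1347.5 and 1515.5 bases in Control, which is 88.4% and 85.5% of the region, against 58.2% and 64.3%. The groups did not overlap, although 2 libraries against 2 cannot give an exact permutation p below 0.333. The other promoter regions showed the same order with a smaller gap, at 88.6% and 87.0% in Fgf13cko and 75.2% and 81.0% in Control. A single peak spanned at least 50% of the region in 79.6% and 78.8% of the 500 in Fgf13cko, against 48.8% and 59.2% in Control. Of the 500 regions, 403 had more covered bases on average in Fgf13cko, as had 7456 of the 10430 others, and the median difference within the 500 was 419 bases. The gap was smaller under another width rule, which asks for a long peak in every library and so favours high coverage in both groups. For the 500 promoter regions ranked by the narrowest of the widest peaks of the 4 libraries, of which 144 were among those described here, the mean of the library medians was 93.2% in Fgf13cko and 89.2% in Control, a gap of 4.05 percentage points, against 25.7 points.

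Brd2 and Hivep2 illustrate the range. Brd2 was covered to 94.3% and 65.1% in Fgf13cko and to 51.6% and 53.6% in Control. Hivep2 was covered to 90.1% and 94.5% in Fgf13cko and to 98.4% and 93.7% in Control. Brd2 held 1 and 2 peaks in Fgf13cko and 3 in each Control library, and Hivep2 a single long peak in every library. Msx3, a homeobox factor of the dorsal neural tube, was covered to 86.1% and 95.9% in Fgf13cko and only to 25.7% and 16.8% in Control.

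**Figure D2:**
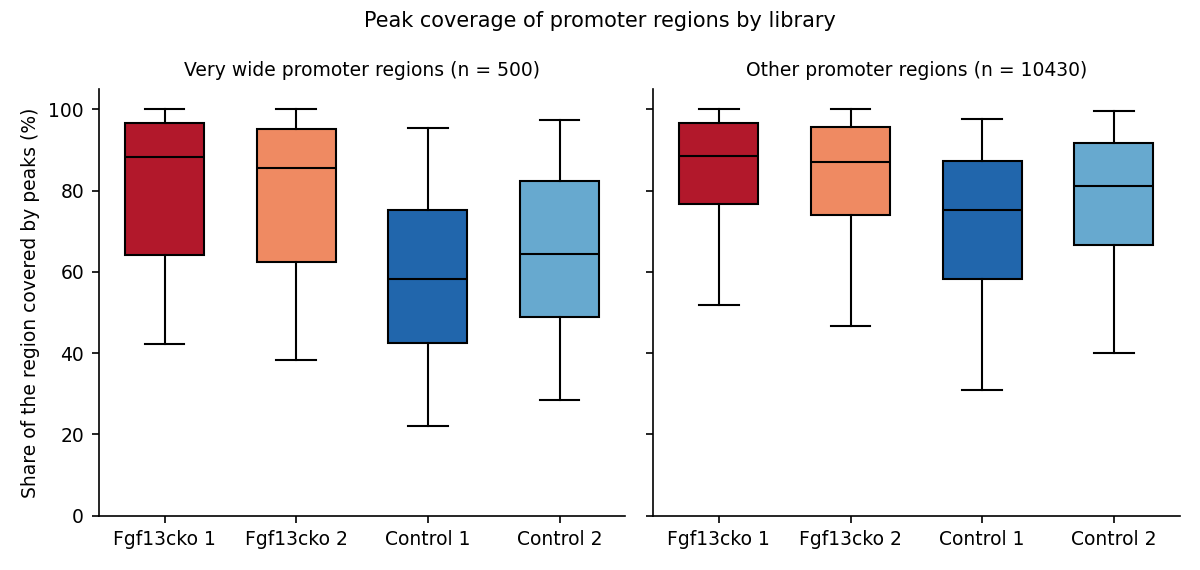
Boxes give, for each library, the quartiles and median of the share in percent of a region covered by that library's peaks, with whiskers at the 5th and 95th percentiles, for the 500 widest and the other promoter regions. Both Fgf13cko medians lie above both Control medians in each panel, and the gap is wider in the 500 (88.4% and 85.5% against 58.2% and 64.3%), which were chosen by merged width.

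The peaks that set the edges came more often from Fgf13cko. Both edges came from Fgf13cko peaks in 208 of the 500 (41.6%, against 39.1% of the other promoter regions) and both from Control peaks in 55 (11%, against 11.4%). These shares were close to those of promoter regions in general. When each library's own 500 promoter regions with the widest single peak were listed, 320 and 305 of the lists of Fgf13cko 1 and 2 were among the 500 described here, against 179 and 209 of the lists of Control 1 and 2. The lists of the 2 Fgf13cko libraries shared 265 regions and those of the 2 Control libraries 286, and lists of different groups shared 197 to 223. In all 4 lists stood 109 regions, of which 77 were among the 500. They included Hivep2, Mpp2, Nrp1, Cdh4, Tubb2b, Bhlhe40, Etv1, Dusp6, Ntrk2, Meis1 and Jun, chosen here as genes of the lists or of the naming rules after their values were seen.

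The coverage gap changed with the stricter of 2 peak thresholds. With −log10 q of at least 2, the mean of the library medians was 86.6% in Fgf13cko and 59.3% in Control. With the authors' peaks limited to −log10 q of at least 5, the median covered share was 46.8% and 0% in Fgf13cko, against 28.2% and 42.2% in Control, so the groups overlapped. No such peak was found in 199 and 255 of the 500 regions in Fgf13cko, against 204 and 170 in Control. The strongest peak of a region had lower enrichment in the wide regions than at other promoters. Its median fold enrichment over background, from the authors, was 4.03 and 4.07 in Fgf13cko and 4.40 and 4.42 in Control. At the other promoter regions the median was 5.58 and 5.37 in Fgf13cko and 5.58 and 5.79 in Control. The peaks are broad, and the part of peak length in their fold enrichment and −log10 q was not tested.

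Wide regions held more tags in total but no higher density. Counts were scaled to a common effective library size (normalised counts). The median count was 231 and 171 in Fgf13cko and 179 and 192 in Control, against 104 and 93.3 in Fgf13cko and 101 and 104 in Control at the other promoter regions. Per kb of region, the median was 99.96 and 71.6 in Fgf13cko and 75.4 and 82.9 in Control, against 98.5 and 92.4 in Fgf13cko and 98.8 and 103 in Control at the others. Only Fgf13cko 1 kept the density of the other promoters. The 500 regions took 4.67% and 3.59% of nuclear region tags in Fgf13cko and 3.89% and 4.08% in Control. In every library, width and log2 count correlated across the members (r between 0.25 and 0.26, n = 499 regions, which share a library and its depth), while width and count per kb did not (r between −0.00 and 0.02).

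The order of the libraries changed with width. In promoter regions under 750 bases the median count per kb was 60.5 and 93.0 in Fgf13cko and 97.3 and 94.9 in Control. In those of at least 2500 bases it was 102 and 72.2 in Fgf13cko and 76.4 and 84.3 in Control. Fgf13cko 1 was thus the lowest library at narrow promoters and the highest at wide ones, while Fgf13cko 2 was the lowest at wide ones. Across all 10861 tested promoter regions, width and log2 fold change correlated with r = 0.31 (rho = 0.35), and within the members they did not (r = −0.02, n = 499). The difference in covered bases between the groups and the log2 fold change correlated with r = 0.26 in the members and 0.33 in all promoter regions. Both measures come from the same libraries.

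**Figure D3:**
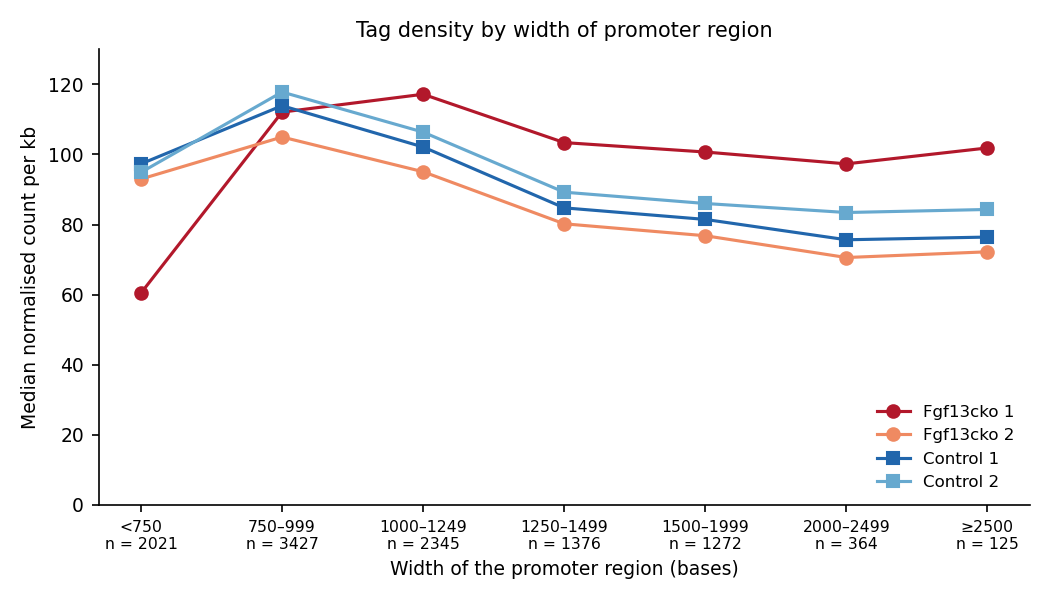
Lines give the median normalised count per kb of each library in promoter regions grouped by width in bases, with the number of regions under each group. Fgf13cko 1 lies lowest below 750 bases (60.5) and highest from 2500 bases (102), where Fgf13cko 2 lies lowest (72.2).

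Fgf13cko 1 stood apart in the wide regions. It had the highest normalised count of the 4 libraries in 357 of 499 (71.5%), against 35.9% of the other promoter regions. Fgf13cko 2 had the highest in 10, Control 1 in 41 and Control 2 in 91. Fgf13cko 1 exceeded Fgf13cko 2 in 485 of 499 regions, with a median log2 ratio of 0.46, and Control 2 exceeded Control 1 in 346 of 499, with a median of 0.09. Relative to the Control mean, the median region stood at 0.26 and −0.17 (log2) in Fgf13cko 1 and 2.

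Few of the wide promoter regions changed between the groups. With edgeR's quasi-likelihood test over all 28814 tested regions and Benjamini-Hochberg adjustment at 0.05, 14 of 499 tested members rose in Fgf13cko (2.81%), against 5.73% of all regions and 0.888% of the other promoter regions. A single member fell (0.2%), against 1.79% of all regions and 0.811% of the other promoter regions. In either direction the shares were 3.01% of the members, 7.52% of all regions and 1.7% of the other promoter regions. The median log2 fold change was 0.07 in the members, −0.03 in all regions and −0.11 in the other promoter regions. It was above 0 in 285 of 499 members (57.1%), against 37.5% of the other promoter regions. Members were chosen by merged width, whose edges came more often from Fgf13cko peaks. In the 500 promoter regions ranked by the narrowest of the widest peaks of the 4 libraries, 5 rose and 4 fell. Their median log2 fold change was −0.01. Both Fgf13cko libraries lay above both Control libraries in 122 members (24.4%, against 26.9% of all regions and 16.7% of the other promoter regions), and below both in 58 (11.6%, against 27.1% and 33.2%). Hist1h2ap was the only member with too few tags to be tested. In bulk cultures, more cells with an open region and more openness per cell cannot be told apart.

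The counts of changed regions rested on single libraries. Without Fgf13cko 1, 33 members rose and 96 fell and the median log2 fold change was −0.18. Without Fgf13cko 2, 187 rose and 3 fell and the median was 0.30. Without either Control library no member passed the edgeR test, where 11 members (without Control 1) and 24 (without Control 2) had an unadjusted p under 0.05. With 1 library in a group, that library is assumed to vary like those of the other group. Scaling by region tags alone, mitochondrial tags included, raised the log2 fold changes of all regions by a median of 0.996. Under it 491 members passed, their median was 1.05 and Ndrg2 stood at −0.20 without passing, so the directions given here are relative to the TMM scaling of edgeR.

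**Figure D4:**
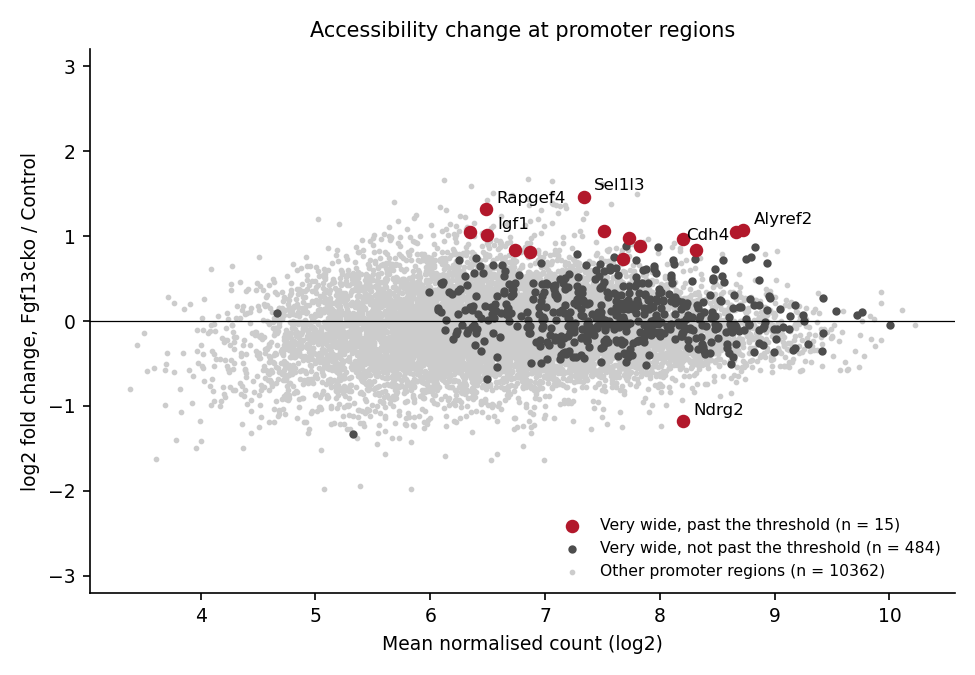
Points are tested promoter regions, with the mean normalised count of the 4 libraries (log2) on the x axis and the log2 fold change of Fgf13cko over Control on the y axis. The 15 members past the threshold are drawn large, 14 of them above 0, with Sel1l3 highest at 1.47 and Ndrg2 alone below 0 at −1.18.

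Signalling genes were among those that rose. Rapgef4, which activates Rap proteins in response to cyclic AMP (chr2:72054285-72056523), had normalised counts of 148 and 107 in Fgf13cko and 59.2 and 43.2 in Control. Its log2 fold change was 1.32 ± 0.26 (SE, n = 2 each, edgeR adjusted p = 0.0196), and the groups did not overlap. Of its 3 other measured regions 0 rose, with a median of −0.07. Igf1, a secreted growth factor (chr10:87858372-87861114), had 135 and 107 in Fgf13cko and 56.3 and 63.1 in Control (log2 fold change 1.01, edgeR adjusted p = 0.0304), and did not pass under DESeq2 (adjusted p = 0.0798). Its 1 other measured region had a log2 fold change of −0.65 and did not pass. Fgf13cko peaks covered 94.9% and 37.3% of the Igf1 region, against 9.84% and 21.7% for Control peaks. Psd3, an exchange factor for the small GTPase Arf6 (chr8:67972491-67974732), had 306 and 190 in Fgf13cko and 121 and 116 in Control (log2 fold change 1.06, edgeR adjusted p = 0.0355), and 1 of its 6 other regions rose. Efs, an adaptor of the Cas family (chr14:54924676-54927172), had 285 and 304 in Fgf13cko and 137 and 182 in Control (log2 fold change 0.88, edgeR adjusted p = 0.0338). It was the only one of these in which Fgf13cko 2 was the highest library.

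Fgf14 is a close relative of Fgf13 that binds the same sodium channels. Its region (chr14:124675015-124677853, 2839 bases) had 448 and 366 in Fgf13cko and 228.0 and 228.4 in Control. The log2 fold change was 0.83 ± 0.20 (SE, n = 2 each, edgeR adjusted p = 0.0363), with both Fgf13cko libraries above both Control libraries. The 3 other measured regions of Fgf14 had a median log2 fold change of 0.50, and none passed the test. Fgf12 had 184 and 142 in Fgf13cko and 170 and 194 in Control, and its groups overlapped (log2 fold change −0.16, edgeR adjusted p = 0.691). Fgf13 itself, the targeted gene, is a member through a region over its 5' UTR (chrX:59566138-59568294), with 125 and 80.7 in Fgf13cko and 104 and 102 in Control. The log2 fold change was −0.00 (edgeR adjusted p = 0.999). A further Fgf13 region at a start site (chrX:59133646-59135567, 1922 bases) fell outside the 500, with 86.7 and 67.1 in Fgf13cko and 88.8 and 88.2 in Control. An intronic region (chrX:59178885-59179789) had 88.9 and 83.9 in Fgf13cko and 41.5 and 57.1 in Control (log2 fold change 0.80, edgeR adjusted p = 0.0986). Another (chrX:59241102-59241909) had a log2 fold change of −0.56 (edgeR adjusted p = 0.341), so neither passed. The labels do not say which part of Fgf13 was floxed, so these regions do not check the deletion.

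A pair of cadherins, which hold cells together, rose. Cdh4 (chr2:179441450-179444196) had 691 and 403 in Fgf13cko and 267 and 260 in Control (log2 fold change 1.05 ± 0.27, SE, n = 2 each, edgeR adjusted p = 0.0477), and 3 of its 6 other measured regions rose too. Cdh20 (chr1:104768237-104770420) had 342 and 222 in Fgf13cko and 142 and 144 in Control (log2 fold change 0.97, edgeR adjusted p = 0.0396), and 3 of its 7 other regions rose. In both, the Control libraries lay close together and the Fgf13cko libraries apart. Of the 13 members on the axon guidance and adhesion list, Cdh4 alone passed the test, and the median log2 fold change was 0.09. Nrp1 had 511 and 422 in Fgf13cko and 259 and 306 in Control, and Robo2 had 342 and 257 in Fgf13cko and 191 and 212 in Control. Neither passed (edgeR adjusted p = 0.0703 for Nrp1 and 0.142 for Robo2), though in both the groups did not overlap.

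The largest rise was at Sel1l3 (chr5:53213107-53215473), with 260.0 and 216 in Fgf13cko and 70.1 and 101 in Control. The log2 fold change was 1.47 ± 0.23 (SE, n = 2 each, edgeR adjusted p = 0.00878). The 1 other measured region of Sel1l3 stood at −0.07. Its rise was not accompanied by wider peaks in every library, since Fgf13cko peaks covered 49.2% and 64.6% of the region and Control peaks 32.1% and 65.4%. Alyref2, a paralogue of the mRNA export adaptor Alyref (chr1:171501707-171504123), had 680 and 470 in Fgf13cko and 236 and 311 in Control (log2 fold change 1.07, edgeR adjusted p = 0.0347). Msx3 (chr7:140047786-140049924) had 123 and 96.5 in Fgf13cko and 59.2 and 46.7 in Control (log2 fold change 1.05, edgeR adjusted p = 0.0355), and did not pass under DESeq2 (adjusted p = 0.0893). Within 5 Mb of Msx3, 24 of 194 regions rose and the median log2 fold change was 0.40. Kifc3, a minus-end directed kinesin (chr8:95142116-95144175), had 449 and 329 in Fgf13cko and 207 and 190 in Control (log2 fold change 0.97, edgeR adjusted p = 0.0295), while its 2 other regions had a median of −0.03 and 0 rose. The remaining 3, Akap6, Dock10 and Adamts6, are named here after their values were seen, and their log2 fold changes were 0.84, 0.81 and 0.74 (edgeR adjusted p = 0.0499, 0.0459 and 0.0486). None of these 3 passed under DESeq2 (adjusted p = 0.139, 0.130 and 0.0652), and Adamts6 did not pass with edgeR's RLE factors (adjusted p = 0.0533).

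Ndrg2, which is abundant in astrocytes, was the member that fell. Its region (chr14:51913092-51915215) had 215 and 147 in Fgf13cko and 399 and 419 in Control. The log2 fold change was −1.18 ± 0.22 (SE, n = 2 each, edgeR adjusted p = 0.0170), and the groups did not overlap. The region was nevertheless covered more in Fgf13cko, to 91.1% and 95.9%, than in Control, to 85.8% and 83.8%.

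**Figure D5:**
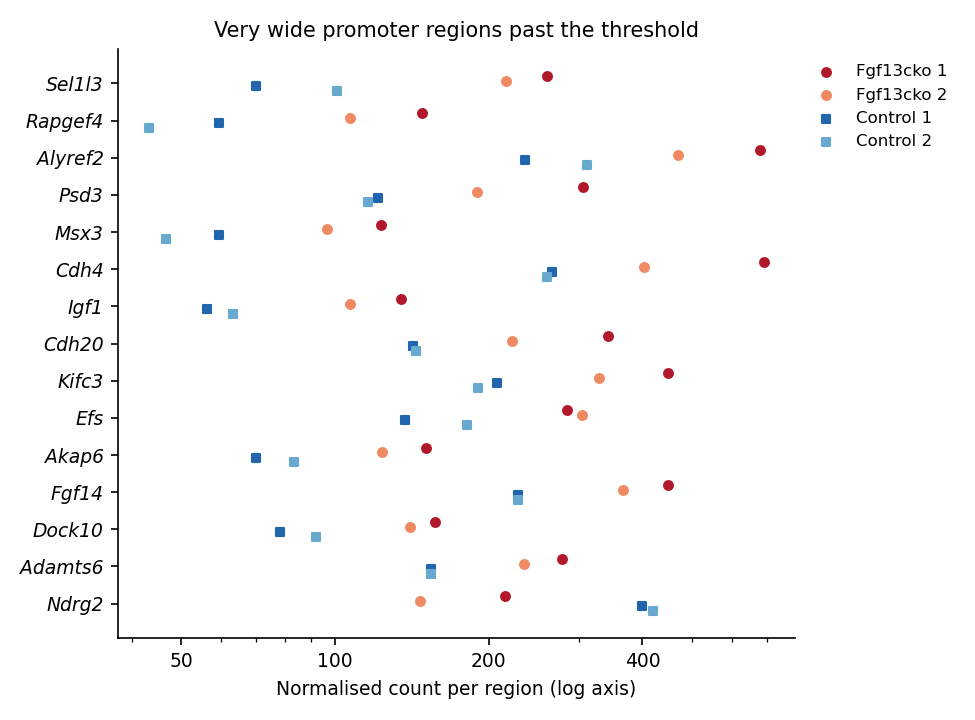
Each line is one of the 15 regions past the threshold, ordered by log2 fold change, with the normalised count of each library on a log axis (Fgf13cko as circles, Control as squares). Both Fgf13cko libraries lie above both Control libraries in 14 regions and below them in Ndrg2.

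The 10 widest regions did not pass the test. Brd2 had 664 and 475 in Fgf13cko and 636 and 732 in Control (log2 fold change −0.27 ± 0.23, SE, n = 2 each, edgeR adjusted p = 0.545). Hivep2 had 716 and 481 in Fgf13cko and 719.6 and 804 in Control, so both Fgf13cko libraries were lower, by little in 1 of them (log2 fold change −0.35, edgeR adjusted p = 0.439). Erf had 488 and 409 in Fgf13cko and 509 and 457 in Control, with overlapping groups. The log2 fold changes of the 10 lay between −0.39 (Gpc4) and 0.26 (Gramd1a). Gpc4 had 128 and 124 in Fgf13cko and 146 and 183 in Control (edgeR adjusted p = 0.286).

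Of the wide promoter regions on the 27 lists, only Cdh4 and Fgf14 passed the test. Narrower promoter regions of some lists did pass. Counting all promoter regions of a list, 4 rose and 0 fell for synaptic and neuronal genes. For microtubule genes and kinesins 2 rose and 0 fell. For the BMP and TGF-beta pathway 0 rose and 4 fell, and for Zfp zinc finger genes 3 rose and 4 fell. For neural stem cell and radial glia genes 0 rose and 1 fell. All 4 stem cell and radial glia members had values below 0: Sox9, with 332 and 256 in Fgf13cko and 347 and 403 in Control (log2 fold change −0.35), Id4 (−0.41), Gli3 (−0.21) and Pax6 (−0.04). The edgeR adjusted p of these 4 was 0.259 or higher, and 0 of 4 passed. Of 6 wide proneural regions 0 passed, with a median log2 fold change of −0.11. Eomes, a factor of intermediate progenitors, had 84.4 and 75.5 in Fgf13cko and 59.2 and 57.1 in Control (log2 fold change 0.46, edgeR adjusted p = 0.285). Of the 8 FGF and MAPK members only Fgf14 passed, and their median was 0.01. Dusp6, a phosphatase that dampens MAP kinase signalling, had a log2 fold change of −0.00. Of the 7 members on the microtubule and kinesin list 0 passed, with a median of 0.16. Kifc3, the kinesin that rose, is not on that list. Closest of the 7 members was Clasp2, which binds growing microtubule ends (log2 fold change 0.78, edgeR adjusted p = 0.0550). It had 221 and 172 in Fgf13cko and 107 and 121 in Control.

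Among the other lists, 0 of 5 BMP and TGF-beta members passed. Tgif1, a repressor in that pathway, had 385 and 264 in Fgf13cko and 462 and 458 in Control (log2 fold change −0.50, edgeR adjusted p = 0.227). Of 5 cell cycle members 0 passed. Cdkn1a, an inhibitor of cyclin-dependent kinases, had 228 and 159 in Fgf13cko and 274 and 279 in Control (log2 fold change −0.52, edgeR adjusted p = 0.195). The 3 housekeeping members had log2 fold changes of 0.31 (Gapdh), −0.04 (Ubb) and −0.04 (Actb), and 0 passed. Of 9 Zfp members 0 passed, with Zfp710 closest (log2 fold change 0.87, edgeR adjusted p = 0.0670).

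Tag density varied widely among the 500. Bhlhe40, a repressor that responds to many stimuli, had the most tags per kb (391, averaged over libraries), followed by the AP-1 subunit Jun (385) and Tarbp2, a partner of Dicer (339). Bhlhe40 had 1183.5 and 843 in Fgf13cko and 1013 and 1073 in Control, with overlapping groups. The fewest among tested regions were at Phf10, a subunit of a chromatin remodelling complex (12.4), Dux, a double homeobox factor (14.8), and Cog1, a Golgi trafficking subunit (28.8). Dux had 16.0 and 29.4 in Fgf13cko and 72.1 and 43.2 in Control (log2 fold change −1.33, edgeR adjusted p = 0.0959). Dux and histone genes such as Hist1h2ap have near-identical copies, so their counts are uncertain.

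Genes with a wide promoter region also held more measured regions elsewhere. There were 2.00 distal regions per gene, against 0.837 for genes of the other promoter regions. Among 994 such regions 113 rose in Fgf13cko (11.4%), against 9.25% of the 8435 at other genes. In the other direction 28 fell (2.82%), against 2.24%. Distal regions were assigned to the gene of the nearest start site. Genes with a wide promoter region were also longer (median 69.3 kb, against 27.0 kb), and the part of gene length was not tested.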

How the data were processed

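ATAC-seq libraries of 2 Fgf13cko and 2 Control neurosphere cultures were used. Per the file headers, the deposited table holds estimated counts, raw, unnormalised tags given by HOMER for every merged broad peak (mm10). In the deposited peak lists of the authors, each peak has a score, a fold enrichment (a ratio over background), a −log10 p and a −log10 q, which served to describe or filter peaks. Per the submitters' processing notes the tools were HOMER, MACS2, Bowtie2, DESeq2 and Picard, in roles left unstated. For versions, duplicate handling and the Tn5 shift of reads, the sources used here give nothing. The regions kept by the authors each hold a peak of all 4 libraries, so a region open in 1 group only is outside the table.

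Counts, multiples of 0.5, were rounded to whole numbers. The 2 mitochondrial regions were left out, filterByExpr was applied, and Fgf13cko was compared with Control in edgeR 4.0.16 (R 4.3.3) with TMM scaling, glmQLFit with robust estimation and glmQLFTest, two-sided, with Benjamini-Hochberg adjustment over all tested regions at 0.05. The common biological coefficient of variation was 0.191. Each SE is the size of the log2 fold change divided by the square root of the test's F statistic. It is not the spread of the libraries of a group at that region alone. The procedure was tested on simulated data with the same dispersion for every region and library. The simulation therefore cannot check calls where 1 group varies more than the other, as the Fgf13cko libraries did here. Normalised counts are tags divided by relative effective library size. Peak coverage is the number of bases of a region under a library's peaks.

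The genes named were the 10 widest, the 5 regions on each side of the width limit, up to 10 of each direction with the largest change past the threshold and no overlap of groups, up to 4 per list by smallest p, the 3 with the most and the 3 with the fewest tags per kb, and Fgf13. Alternatives were other scalings, filters, DESeq2 1.42.0, each library left out, replicate blocks, other width rules and peak thresholds. Some list members are not reported here by name. Members and lists were chosen with earlier results of these data known. No microglial, endothelial or ependymal promoter region of the lists was among the 500, and Hox genes had none measured.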

Additional observations from a re-analysis of the deposited data

How the results depend on the processing

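Fgf13cko against Control gave 15 wide promoter regions past the threshold, and 14 with RLE factors, 18 with DESeq2, 16 with mitochondrial regions kept and 15 with no filter. A mean of at least 50 tags gave 32, a fit on promoter regions only 32, and a loess offset on abundance 50 (3417 over all regions, against 2168). With region tags as the only scaling, where mitochondrial tags count, 491 passed (17704 over all regions), the median was 1.05, all regions moved by a median of 0.996, and Brd2 (0.72), Erf (0.88), Hivep2 (0.63), Gpc4 (0.61), Mdga1 (0.94) and Fgf13 (0.98) turned positive. Leaving out 1 library gave 0 to 190 members, 138 to 10120 of all regions, a median of −0.18 to 0.30 and a coverage gap of 22.6 to 28.8 percentage points. All 15 called regions lost their call without either Control library and kept it without either Fgf13cko library. Under DESeq2, 10 of the 15 kept it, and Msx3, Igf1, Akap6, Dock10 and Adamts6 lost it. Adamts6 also lost it with RLE factors (adjusted p = 0.0533) and under the replicate block (adjusted p = 0.0544). The 250 widest gave 8 and the 1000 widest 25. Regions ranked by the narrowest of the widest peaks of the 4 libraries gave 9, of which 5 rose and 4 fell. Their coverage gap was 4.05 points, against 25.7. With −log10 q of at least 5 the gap was −11.8 points. The cause was not tested. The labels give no pairing by number, and same-numbered libraries deviated with a correlation of −0.23. A replicate block gave 19 members and 3306 regions, and the crossed pairing, added after seeing the data, 35 and 3304. Depth limits narrow or weak peaks, and the number of libraries limits precision.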
